A study of Mus musculus with 8 samples.

Results

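Interferon-stimulated genes are the genes a cell switches on when it senses interferon, and 36 of them were examined in 2 mesenchymal cell populations of the mouse liver. Interferons are secreted signals, most of them made when a cell detects viral or misplaced nucleic acid. They bind receptors that act through JAK kinases on transcription factors, among them STAT2 and IRF9, and these bind interferon-stimulated response elements (ISRE) or gamma-activated sites (GAS) in the promoters of the target genes. The products sense foreign RNA, cut or trap it, block viral entry and budding, or feed back on the pathway, and many are made at a low level without infection.

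The 36 genes were taken by symbol from a fixed list of known members. The rule uses no measured level, but the members were chosen with earlier results of these data known. All 36 were matched to 1 identifier each among the 30395 listed, and 35 of 36 reached 1 CPM (reads of a gene per 1000000 reads of its library) in at least 2 libraries and entered the test among 16446 genes. The gene that did not was Mx1. The median log2 fold changes and counts below are therefore over 35 genes and not over all 36.

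The groups were Gli1+ peribiliary mesenchymal cells taken 5 d after surgical ligation of the bile duct (BDL), which stops bile flow, stellate cells 5 d after BDL, uninjured Gli1+ cells and uninjured stellate cells, with 2 libraries in each. Mice in all 4 groups were 8 weeks old, of the strain Mixed (C57BL/6, SWR/J) and carried Gli1:CreER+/-; Ai9+/-, where the Gli1 gene drives an inducible Cre that can turn on a red fluorescent reporter. Cells were sorted from digested liver and sequenced by SMART-Seq2, a full-length cDNA method. The sort gates, the inducing drug and whether cells of several animals were pooled are not given in the labels. Nor do these say that replicates 1 and 2 are different animals, and p-values therefore cover only a spread between libraries that may be technical.

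Library totals ranged from 11261775 to 19180370 reads. Stellate cells carried their markers, with Lrat, which stores retinol as esters, at 1832 to 2784 CPM in the 4 stellate libraries, against 5.16 to 35.9 CPM in the 4 Gli1+ libraries. Gli1 lay between 2.39 and 14.9 CPM in Gli1+ libraries and at 0 to 0.0584 CPM in stellate libraries. Markers of other cell types also moved with the groups. The summed CPM of 14 cholangiocyte markers was 3377 to 16803 in Gli1+ libraries and 4.01 to 762 in stellate libraries. That of 12 mesothelial markers was 3995 to 11001 CPM in Gli1+ libraries and 4.46 to 170.5 CPM in stellate libraries, and that of 14 portal fibroblast markers 3667 to 11529 CPM and 589 to 747 CPM. The sum of 18 endothelial markers ranged from 593 to 2180.0 CPM in Gli1+ libraries and from 389 to 4362 CPM in stellate libraries, and the mitochondrial share of reads from 2.21% to 5.72% and from 0.808% to 2.73%. The sum of 20 hepatocyte markers was highest in the second Gli1+ library after BDL, at 23239.5 CPM, and between 247 and 4154 CPM in the other 7. The sum of 18 macrophage markers was 12937 CPM in the first uninjured stellate library and 69.5 CPM in the second, with 1403 to 4016 CPM in the other 6. In that first library Clec4f, a Kupffer cell lectin, stood at 2185 CPM, against 4.48 CPM in the second. The first uninjured stellate library also had the highest sums of lymphocyte and dendritic cell markers, 59.1 CPM, and of neutrophil markers, 42.9 CPM. These sums were 0.521 to 26.9 CPM and 0.104 to 9.46 CPM in the other 7. The part of these cells in the results was not tested, and in bulk samples fewer cells of a type and less RNA per cell cannot be told apart.

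The promoters of 6 of the genes, each with at least 1 ISRE or GAS core, are shown first. They are from RefSeq (GRCm38.p6), 250 bases before to 50 bases after the start. Capitals mark matches to the ISRE core (GAAA, any 2 bases, GAAA) or the GAS core TTCNNNGAA on either strand, overlapping matches included, and positions are counted with the start as 0. Ifit3 (chr19:34583279-34583578, plus strand) held 2 ISRE cores, whose first bases lay at -156 and -122 from the start. Isg15 (chr4:156200769-156201068, minus strand) held 3 overlapping ISRE cores, from -78, -72 and -66. Oas1a (chr5:120907476-120907775, minus strand) held 2 overlapping ISRE cores, from -20 and -14, and 1 GAS core. Gbp2 (chr3:142620413-142620712, plus strand) held 1 ISRE core. Gbp7 (chr3:142530086-142530385, plus strand) held 1 ISRE core and 2 GAS cores. Irf1 (chr11:53769764-53770063, plus strand) held 1 GAS core, and another Irf1 promoter, not shown, that begins at 53770223 held neither core.
Ifit3: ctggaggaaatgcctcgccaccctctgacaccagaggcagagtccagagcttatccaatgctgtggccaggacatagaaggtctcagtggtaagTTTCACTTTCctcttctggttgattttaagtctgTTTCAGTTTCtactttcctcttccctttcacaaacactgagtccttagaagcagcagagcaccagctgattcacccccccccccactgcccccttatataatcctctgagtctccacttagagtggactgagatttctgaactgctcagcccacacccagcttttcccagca
Isg15: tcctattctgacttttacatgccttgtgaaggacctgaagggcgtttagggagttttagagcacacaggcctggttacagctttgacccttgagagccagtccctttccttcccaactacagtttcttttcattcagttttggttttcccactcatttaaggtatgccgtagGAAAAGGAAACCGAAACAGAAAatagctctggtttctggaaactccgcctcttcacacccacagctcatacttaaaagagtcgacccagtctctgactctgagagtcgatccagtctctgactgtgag
Oas1a: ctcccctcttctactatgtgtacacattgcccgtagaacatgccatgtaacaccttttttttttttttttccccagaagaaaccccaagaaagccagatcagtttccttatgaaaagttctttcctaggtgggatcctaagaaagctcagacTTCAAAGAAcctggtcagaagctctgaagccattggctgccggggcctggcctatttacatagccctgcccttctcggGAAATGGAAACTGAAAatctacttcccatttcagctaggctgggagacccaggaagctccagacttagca
Gbp2: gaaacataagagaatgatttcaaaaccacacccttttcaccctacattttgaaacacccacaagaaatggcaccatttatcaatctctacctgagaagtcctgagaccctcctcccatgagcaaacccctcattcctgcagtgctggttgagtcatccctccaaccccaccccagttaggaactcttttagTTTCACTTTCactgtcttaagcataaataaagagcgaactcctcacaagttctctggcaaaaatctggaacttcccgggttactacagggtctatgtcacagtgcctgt
Gbp7: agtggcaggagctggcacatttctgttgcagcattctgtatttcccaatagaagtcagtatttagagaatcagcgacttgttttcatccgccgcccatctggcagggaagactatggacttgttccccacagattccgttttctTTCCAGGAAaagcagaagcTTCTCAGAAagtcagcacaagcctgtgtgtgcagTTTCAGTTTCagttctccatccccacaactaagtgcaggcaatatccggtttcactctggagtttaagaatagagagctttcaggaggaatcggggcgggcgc
Irf1: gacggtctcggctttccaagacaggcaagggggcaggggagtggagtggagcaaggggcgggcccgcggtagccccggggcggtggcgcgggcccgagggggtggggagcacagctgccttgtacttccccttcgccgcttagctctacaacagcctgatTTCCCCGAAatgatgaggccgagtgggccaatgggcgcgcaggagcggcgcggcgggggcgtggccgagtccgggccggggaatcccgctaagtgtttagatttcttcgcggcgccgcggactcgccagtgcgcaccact

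RefSeq gave 32 promoters for 27 of the 36 genes. Of the 32 promoters, 18 (56.2%) held an ISRE core, against 3.44% of 32851 mouse promoters of the same length, and these belonged to 17 of the 27 genes. A GAS core was found in 8 of the 32 promoters (25%), against 8.30% of all. Both kinds stood in the promoters of Bst2, Eif2ak2, Gbp7, Ifitm3 and Oas1a. Neither kind was found in those of Cmpk2, Herc6, Ifi44, Irf7, Irf9, Oasl2 and Xaf1. These are matches of letters and not sites shown to be bound. The genes without an entry were Dhx58, Zbp1, Oas2, Mx1, Mx2, Usp18, Parp9, Parp14 and Rtp4.

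Averaged over uninjured and BDL cells, 16 of 35 interferon-stimulated genes were called lower in Gli1+ cells than in stellate cells. The share called lower among all genes was 4.91%. Per-library medians over the genes were also lower after BDL in both populations, but there no gene passed the limma test. Gbp2, a guanylate-binding protein, was called higher in Gli1+ cells in uninjured liver and on average, but not after BDL alone. Of all genes, 8.06% were called higher in uninjured liver and 12% on average. Neither call of Gbp2 held under every other setting tried. Both libraries of each group are given in place of a mean and SD. Per library, the median over the 36 genes was 12.6 and 23.7 CPM in Gli1+ cells after BDL, 57.6 and 56.8 CPM in stellate cells after BDL, 37.2 and 40.3 CPM in uninjured Gli1+ cells, and 107 and 73.1 CPM in uninjured stellate cells. The Gli1+ libraries were thus below the stellate libraries, and within each population the BDL libraries were below the uninjured ones, with no overlap of the groups. The median of all genes tested ran the other way between populations, at 16.7 to 19.3 CPM in the 4 Gli1+ libraries and 10.6 to 14.7 CPM in the 4 stellate libraries.

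**Figure D1:**
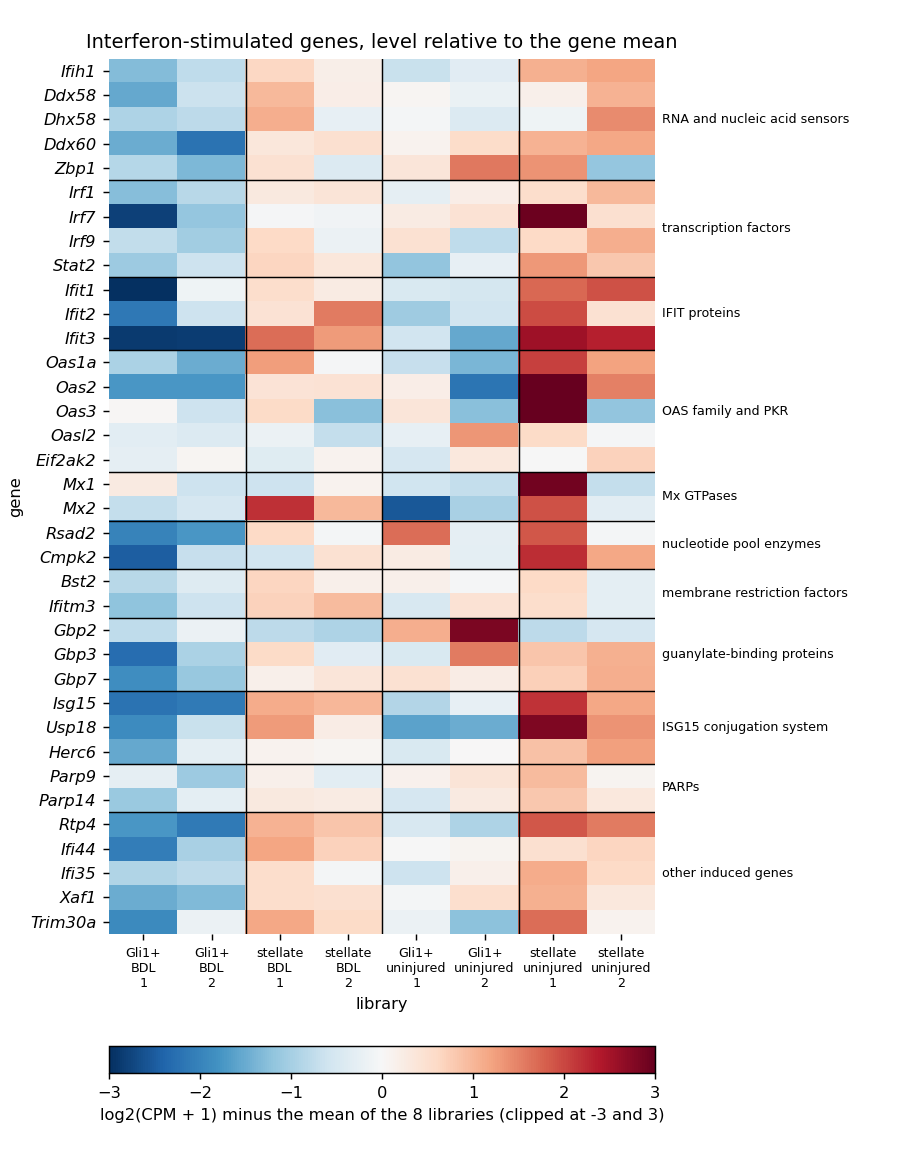
Level of the 36 interferon-stimulated genes in each of the 8 libraries, as log2(CPM + 1) minus the gene's mean over the 8 libraries, with colours clipped at -3 and 3 and genes ordered by role. The 2 Gli1+ libraries after BDL are the bluest columns, and the uninjured stellate libraries the reddest, with the first of them darkest in Irf7, Oas2, Oas3, Mx1 and Usp18.

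Of the 35 genes tested, 22 had their lowest value of all 8 libraries in the first Gli1+ library after BDL and 6 in the second. The highest value was in the first uninjured stellate library for 17 genes and in the second for 10. Among all genes tested, 9.04% were lowest in the first Gli1+ library after BDL and 9.05% in the second, and 14.0% and 11.4% were highest in the first and second uninjured stellate libraries.

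In uninjured liver, 7 of 35 genes were called lower and 1 was called higher in Gli1+ cells than in stellate cells, where 3.02% of all genes were called lower and 8.06% higher (limma on log2(CPM + 1), Benjamini-Hochberg (BH) adjusted p under 0.05 over all genes). The 7 were Ifih1, Stat2, Ifit3, Oas1a, Oas2, Usp18 and Rtp4, and the 1 was Gbp2. The log2 fold change was below 0 for 32 of 35 genes, with a median of -0.9995, against a median of 0.32 over all genes, of which 37.7% were below 0. Both Gli1+ libraries lay below both stellate libraries for 23 of 35 genes, against 14.6% of all genes, and above them for 1, Gbp2, against 31.1%. The 7 lower calls became 3 when either uninjured Gli1+ library, the first uninjured stellate library or the first BDL stellate library was left out, and 4 without the second BDL stellate library.

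After BDL, 7 of 35 genes were called lower and 0 higher in Gli1+ cells than in stellate cells, where 2.36% of all genes were called lower and 4.44% higher. The 7 were Irf1, Ifit3, Gbp7, Isg15, Rtp4, Ifi44 and Xaf1. No gene was higher at an unadjusted p under 0.05 in limma, and edgeR and DESeq2 called 0 higher as well. DESeq2 called 15 lower, against 4.27% of all genes with an adjusted p. The log2 fold change was below 0 for 31 of 35 genes, with a median of -1.72, against 0.23 over all genes, of which 39.4% were below 0. The 30 genes whose Gli1+ libraries both lay below both stellate libraries compare with 19% of all genes, and the 1 that lay above, Gbp2, with 34.8%. Without the first Gli1+ library or either stellate library after BDL the 7 calls became 2, and without the second Gli1+ library 4.

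Averaged over uninjured and BDL cells, 4 libraries against 4, 16 of 35 genes were called lower and 1 higher, against 4.91% and 12% of all genes. Ddx60, Ifi35, Ifit1 and Ifit2 were called here and in neither condition alone. Ifit3 and Rtp4 were called lower in both conditions. All 4 Gli1+ libraries were below all 4 stellate libraries for 16 of 35 genes, against 5.75% of all genes, and above them for 0, against 13.2%. The 16 calls became 6 without the first and 7 without the second BDL stellate library, 8 without the first BDL Gli1+ library, and 10 without the first uninjured Gli1+ library. Ifit3, Isg15, Usp18, Rtp4 and Ifih1 passed whichever of the 8 libraries was left out. DESeq2 called 24 lower, against 7.37% of all genes with an adjusted p. They were the 16 with Cmpk2, Ddx58, Herc6, Ifitm3, Irf7, Irf9, Mx2 and Trim30a. Of these 8, Herc6 and Irf7 alone were not called lower by limma after a trimmed-mean (TMM) or median-of-ratios rescaling of the libraries. The TMM scaling moved the median of all genes in this comparison to 0.13, against 0.28 on CPM, and that of the 35 genes to -1.37, against -1.18.

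**Figure D2:**
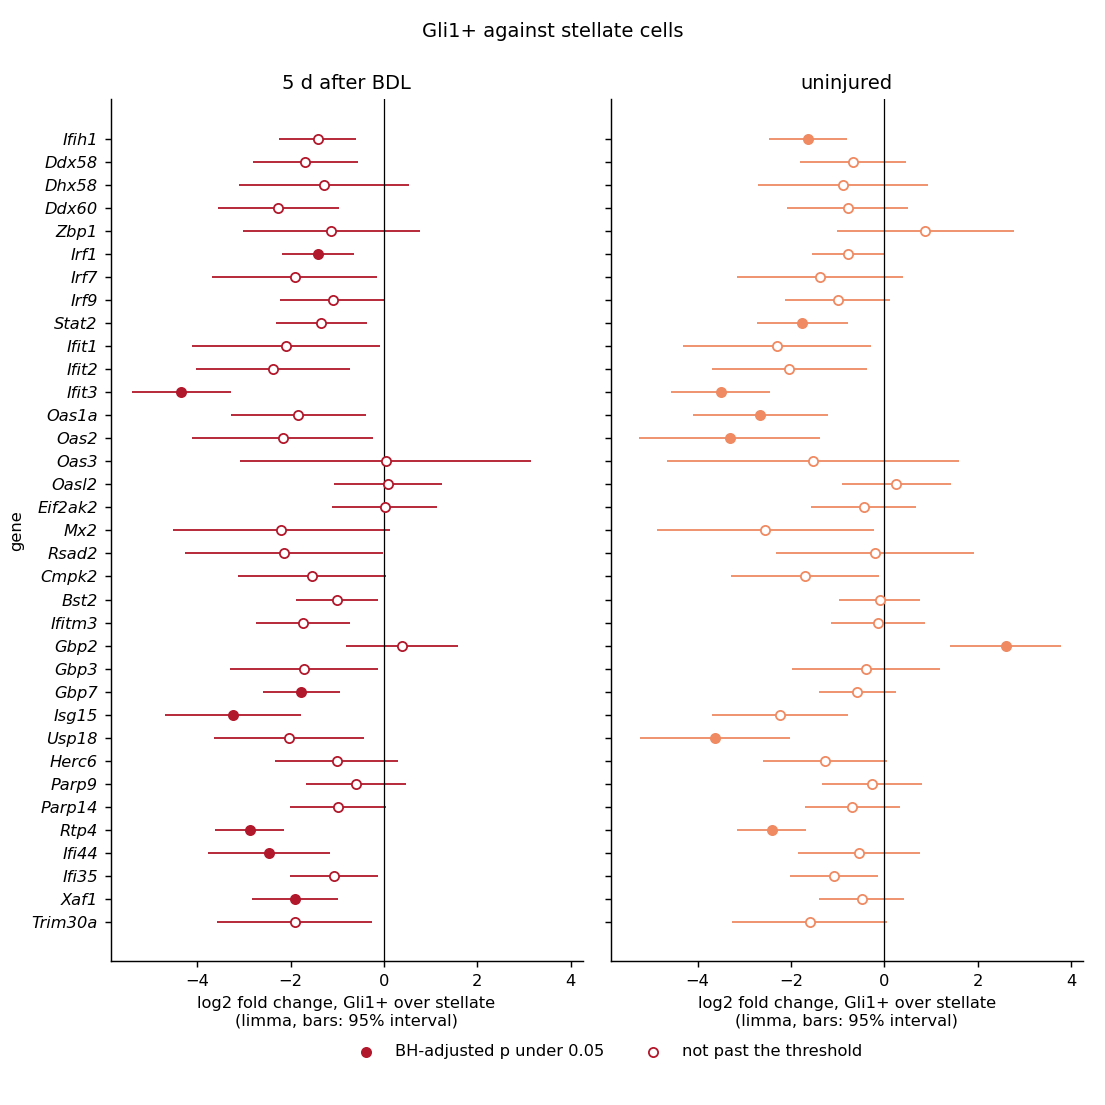
Log2 fold change of Gli1+ over stellate cells for the 35 genes tested, after BDL (left) and in uninjured liver (right), with 95% intervals from limma and filled points past the threshold. Most points lie left of 0 in both panels, and Ifit3 and Rtp4 are filled in both.

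Among the sensors of RNA and other nucleic acids, Ifih1 encodes MDA5, which detects long double-stranded RNA. Ifih1 measured 29.2 and 43.2 CPM in Gli1+ cells after BDL, 112 and 83.00 CPM in stellate cells after BDL, 45.7 and 58.1 CPM in uninjured Gli1+ cells, and 155 and 169 CPM in uninjured stellate cells. All 4 Gli1+ libraries lay below all 4 stellate libraries. The log2 fold change of Gli1+ over stellate cells was -1.63 ± 0.36 in uninjured liver (SE, limma BH-adjusted p = 0.0239) and -1.42 ± 0.36 after BDL (adjusted p = 0.0555). The uninjured call was lost when any 1 library except either BDL Gli1+ library or the first uninjured stellate library was left out, with adjusted p up to 0.108, while that of the averaged comparison, -1.52 with a limma BH-adjusted p of 0.0045, stayed past the threshold.

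Ddx60, a helicase that assists RNA sensing, measured 5.40 and 2.87 CPM in Gli1+ cells after BDL, 21.8 and 24.04 CPM in stellate cells after BDL, 18.2 and 25.5 CPM in uninjured Gli1+ cells, and 36.3 and 39.4 CPM in uninjured stellate cells. The Gli1+ cells after BDL were lowest and overlapped no other group. Its averaged population difference was -1.52 ± 0.40 (limma BH-adjusted p = 0.033), a call that was lost when any 1 library except the second uninjured Gli1+ library or the first uninjured stellate library was left out, with adjusted p up to 0.122. Ddx58, which encodes RIG-I, was also lower in all 4 Gli1+ libraries, at 18.2 to 56.8 CPM, against 60.7 to 113 CPM in the stellate libraries. Averaged, limma on CPM gave it an adjusted p of 0.0523, just short of the threshold, and it was called with either rescaling, limma-voom, edgeR and DESeq2. Dhx58, the regulator LGP2, ranged from 5.24 to 10.5 CPM in Gli1+ libraries and from 9.005 to 30.8 CPM in stellate libraries, which overlap. Zbp1, a sensor of Z-form nucleic acid, ranged from 9.76 to 80.1 CPM in Gli1+ libraries and from 11.2 to 67.6 CPM in stellate libraries.

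Of the transcription factors, Stat2 and Irf9 encode parts of the complex that binds the ISRE. Stat2 measured 31.4 and 43.5 CPM in Gli1+ cells after BDL, 106 and 86.1 CPM in stellate cells after BDL, 29.3 and 57.00 CPM in uninjured Gli1+ cells, and 167 and 119 CPM in uninjured stellate cells. Gli1+ libraries were low and stellate libraries high in both conditions, without overlap. The fold change was -1.76 ± 0.43 on the log2 scale in uninjured liver (limma BH-adjusted p = 0.0328) and -1.35 ± 0.43 after BDL (adjusted p = 0.11). The uninjured call was lost when any 1 library except the second uninjured Gli1+ library or the second uninjured stellate library was left out, with adjusted p up to 0.151. The averaged difference of -1.55 (limma BH-adjusted p = 0.00895) was lost without the first BDL stellate library alone, at 0.0526. Irf9 ranged from 31.0 to 89.0 CPM in Gli1+ libraries and from 57.3 to 138 CPM in stellate libraries, and limma on CPM called it in no comparison. Its exons overlap those of Rnf31 on the same strand, which makes its count uncertain.

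Irf1, a factor that responds to interferon gamma, measured 52.3 and 71.7 CPM in Gli1+ cells after BDL, 158 and 169 CPM in stellate cells after BDL, 107 and 149 CPM in uninjured Gli1+ cells, and 185 and 252 CPM in uninjured stellate cells. The highest Gli1+ library, one from uninjured liver, was still below the lowest stellate library, and within each population the BDL libraries were the lower ones. After BDL the difference of Gli1+ over stellate cells was -1.40 ± 0.34 (limma BH-adjusted p = 0.0439), and it was lost without any of the 4 BDL libraries, with adjusted p up to 0.256, and in edgeR and limma-voom. In uninjured liver it was -0.77 ± 0.34 (limma BH-adjusted p = 0.208).

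Irf7, the factor that amplifies interferon production, measured 7.90 and 26.5 CPM in Gli1+ cells after BDL, 59.8 and 56.2 CPM in stellate cells after BDL, 73.1 and 82.6 CPM in uninjured Gli1+ cells, and 472 and 86.2 CPM in uninjured stellate cells. The first uninjured stellate library stood far above the rest, and it is the library with the highest macrophage, lymphocyte and dendritic cell, and neutrophil marker sums. Limma called Irf7 in no comparison. DESeq2 called it lower after BDL in stellate cells and averaged over both populations, and lower in Gli1+ than in stellate cells on average. Its exons overlap those of Phrf1 on the opposite strand, which averaged 25.3 CPM.

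The IFIT proteins bind viral RNA that lacks the marks of cellular mRNA, and their genes lie together on chromosome 19 between 34550694 and 34650009 (mm10). Ifit3 measured 3.95 and 4.01 CPM in Gli1+ cells after BDL, 115 and 86.2 CPM in stellate cells after BDL, 23.1 and 11.5 CPM in uninjured Gli1+ cells, and 210.0 and 181 CPM in uninjured stellate cells. The 2 populations were far apart in each condition, and the BDL libraries lay below the uninjured ones in both. Gli1+ over stellate cells differed by -4.34 ± 0.47 after BDL (log2, limma BH-adjusted p = 0.00168) and by -3.50 ± 0.47 in uninjured liver (limma BH-adjusted p = 0.00255). Both calls held whichever of the 8 libraries was left out, and under each of the 11 other settings tried. Ifit3b, a close copy whose reads may be split with those of Ifit3, differed by -3.75 and -4.42 in the same 2 comparisons.

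Ifit1 measured 1.77 and 24.1 CPM in Gli1+ cells after BDL, 38.5 and 31.2 CPM in stellate cells after BDL, 18.9 and 18.03 CPM in uninjured Gli1+ cells, and 88.5 and 101 CPM in uninjured stellate cells. The first Gli1+ library after BDL was far below the second, and all Gli1+ libraries were below all stellate libraries. Ifit2 measured 5.72 and 18.3 CPM in Gli1+ cells after BDL, 39.3 and 85.8 CPM in stellate cells after BDL, 13.2 and 18.8 CPM in uninjured Gli1+ cells, and 114 and 39.8 CPM in uninjured stellate cells. Gli1+ libraries were again the low ones, with the largest spread in uninjured stellate cells. The averaged differences were -2.20 ± 0.63 for Ifit1 (limma BH-adjusted p = 0.0447) and -2.21 ± 0.51 for Ifit2 (limma BH-adjusted p = 0.0197). That of Ifit1 lay between -2.99 and -1.40 as single libraries were left out, and its call was lost when any 1 library except either BDL Gli1+ library was left out, with adjusted p up to 0.149, and in edgeR. That of Ifit2 was lost without the first BDL Gli1+ library, the second BDL stellate library or either uninjured Gli1+ library, with adjusted p up to 0.0946.

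The 2'-5'-oligoadenylate synthetases make the signal that turns on RNase L, which degrades RNA. Oas1a measured 11.1 and 7.24 CPM in Gli1+ cells after BDL, 54.8 and 21.7 CPM in stellate cells after BDL, 13.5 and 7.99 CPM in uninjured Gli1+ cells, and 95.04 and 53.02 CPM in uninjured stellate cells. No Gli1+ library reached the lowest stellate library. The difference was -2.66 ± 0.63 in uninjured liver (limma BH-adjusted p = 0.0306) and -1.83 ± 0.63 after BDL (adjusted p = 0.142), and the uninjured call was lost when any 1 library except the second BDL stellate library or the second uninjured stellate library was left out, with adjusted p up to 0.121. Oas1a has a close copy, Oas1g, so its count is uncertain.

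Oas2 measured 5.24 and 5.21 CPM in Gli1+ cells after BDL, 26.6 and 27.4 CPM in stellate cells after BDL, 23.2 and 3.59 CPM in uninjured Gli1+ cells, and 182 and 58.6 CPM in uninjured stellate cells. The first uninjured stellate library, with the highest macrophage and other immune marker sums, was the highest by far. The 4 Gli1+ libraries remained below the 4 stellate libraries. The uninjured difference was -3.31 ± 0.85 (limma BH-adjusted p = 0.0408), which ranged from -4.51 to -2.11 as single libraries were left out. The call was lost when any 1 library except the first uninjured Gli1+ library or the second uninjured stellate library was left out, with adjusted p up to 0.149, and in edgeR and limma-voom. Oas3 lay under 3 CPM in 7 libraries and at 23.00 CPM in the first uninjured stellate library.

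Oasl2, an OAS-like protein with a ubiquitin-like part, measured 108 and 101 CPM in Gli1+ cells after BDL, 119 and 81.2 CPM in stellate cells after BDL, 113 and 339 CPM in uninjured Gli1+ cells, and 202 and 132 CPM in uninjured stellate cells. The groups overlapped, and the second uninjured Gli1+ library was the highest. The population difference was 0.08 ± 0.51 after BDL (adjusted p = 0.96, limma) and 0.26 ± 0.51 in uninjured liver (adjusted p = 0.817, limma). Eif2ak2, the kinase PKR that halts translation on double-stranded RNA, ranged from 23.6 to 42.9 CPM in Gli1+ libraries and from 26.2 to 55.9 CPM in stellate libraries, which overlap, and its BDL difference was 0.02 ± 0.49. The BDL differences of Oas3, Oasl2 and Eif2ak2 changed sign under TMM and median-of-ratios scaling, where 34 of 35 genes were below 0.

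Mx1 and Mx2, dynamin-like GTPases that trap viral particles and lie close together on chromosome 16, were scarce. Mx1 had 11.1 CPM in the first uninjured stellate library and at most 0.967 CPM in the other 7, and was not tested. Mx2 measured 2.58 and 3.11 CPM in Gli1+ cells after BDL, 26.04 and 10.5 CPM in stellate cells after BDL, 0 and 1.997 CPM in uninjured Gli1+ cells, and 20.9 and 3.70 CPM in uninjured stellate cells. Stellate libraries were above all Gli1+ libraries, but the 2 libraries of uninjured stellate cells differed widely. Its population difference was -2.38 ± 0.72 averaged (limma BH-adjusted p = 0.0557), -2.20 ± 1.02 after BDL (limma BH-adjusted p = 0.286) and -2.55 ± 1.02 in uninjured liver (limma BH-adjusted p = 0.165), and limma on CPM called none of these.

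Rsad2, or viperin, and Cmpk2 are neighbouring genes on chromosome 12, and viperin turns CTP into a chain-terminating nucleotide. Cmpk2 measured 5.32 and 20.8 CPM in Gli1+ cells after BDL, 22.7 and 47.7 CPM in stellate cells after BDL, 40.8 and 27.8 CPM in uninjured Gli1+ cells, and 162 and 77.4 CPM in uninjured stellate cells. BDL libraries were below uninjured libraries within each population, without overlap. Its population difference averaged -1.62 ± 0.49 (limma BH-adjusted p = 0.056). Rsad2 was at 1.85 and 2.45 CPM in Gli1+ cells after BDL and between 8.56 and 40.9 CPM in the other 6 libraries. Limma called no difference for it, and DESeq2 called it lower after BDL in Gli1+ cells and averaged over both populations.

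Bst2, or tetherin, holds budding virus at the cell surface, and Ifitm3 blocks fusion of virus in endosomes. Ifitm3 measured 707 and 1059.5 CPM in Gli1+ cells after BDL, 2642 and 3133 CPM in stellate cells after BDL, 1175 and 2212 CPM in uninjured Gli1+ cells, and 2352 and 1339 CPM in uninjured stellate cells. After BDL the Gli1+ libraries were the low ones, and in uninjured liver the 2 populations overlapped. The difference was -1.73 ± 0.44 after BDL (limma BH-adjusted p = 0.0541) and -0.14 ± 0.44 in uninjured liver (limma BH-adjusted p = 0.904). The BDL difference was called with either rescaling, limma-voom and DESeq2. Per kilobase of exon, Ifitm3 was the most abundant of the 36 in every group, at 1302 CPM per kb in Gli1+ cells after BDL, 4259 in stellate cells after BDL, 2498 in Gli1+ cells without injury and 2722 in uninjured stellate cells. Bst2 came second in Gli1+ cells after BDL at 139 CPM per kb. Bst2 ranged from 106 to 209 CPM in Gli1+ libraries and from 153 to 297 CPM in stellate libraries, which overlap.

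The guanylate-binding proteins, GTPases that attack vacuoles of intracellular pathogens, did not follow 1 pattern. Their genes lie together on chromosome 3 between 142530342 and 142638008. Gbp2 measured 80.8 and 121 CPM in Gli1+ cells after BDL, 78.6 and 71.8 CPM in stellate cells after BDL, 294 and 979.5 CPM in uninjured Gli1+ cells, and 79.6 and 96.7 CPM in uninjured stellate cells. The 2 uninjured Gli1+ libraries were the highest, although they differed widely from each other, and the other 6 libraries lay within 71.8 to 121 CPM. Gbp2 was higher in Gli1+ than in stellate cells in uninjured liver, by 2.60 ± 0.53 (limma BH-adjusted p = 0.0161). The value was 1.73 to 3.47 as single libraries were left out, with the call kept. The uninjured call was lost with no filter on low values and with only the libraries of the contrast. After BDL the difference was 0.39 ± 0.53 (limma BH-adjusted p = 0.791). A test of the difference between the 2 conditions gave -2.21 ± 0.74 (limma BH-adjusted p = 0.538), which failed the correction. The averaged call (1.496, limma BH-adjusted p = 0.0259) was lost without any of the 4 BDL libraries, with adjusted p up to 0.106, and in edgeR, limma-voom and both rescalings.

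Gbp7 measured 26.4 and 44.3 CPM in Gli1+ cells after BDL, 110.4 and 128 CPM in stellate cells after BDL, 135 and 115 CPM in uninjured Gli1+ cells, and 164 and 212 CPM in uninjured stellate cells. Gli1+ cells after BDL stood below the other 3 groups, with no overlap. The difference of Gli1+ over stellate cells was -1.77 ± 0.36 after BDL (limma BH-adjusted p = 0.022) and -0.58 ± 0.36 in uninjured liver (limma BH-adjusted p = 0.388). The BDL call was lost without the first BDL Gli1+ library or either BDL stellate library, with adjusted p up to 0.171, and in limma-voom. Gbp3 was at 16.04 and 42.03 CPM in Gli1+ cells after BDL and between 59.7 and 243 CPM elsewhere. Limma called it in no comparison, and DESeq2 called it lower after BDL than in uninjured liver, averaged over both populations.

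**Figure D3:**
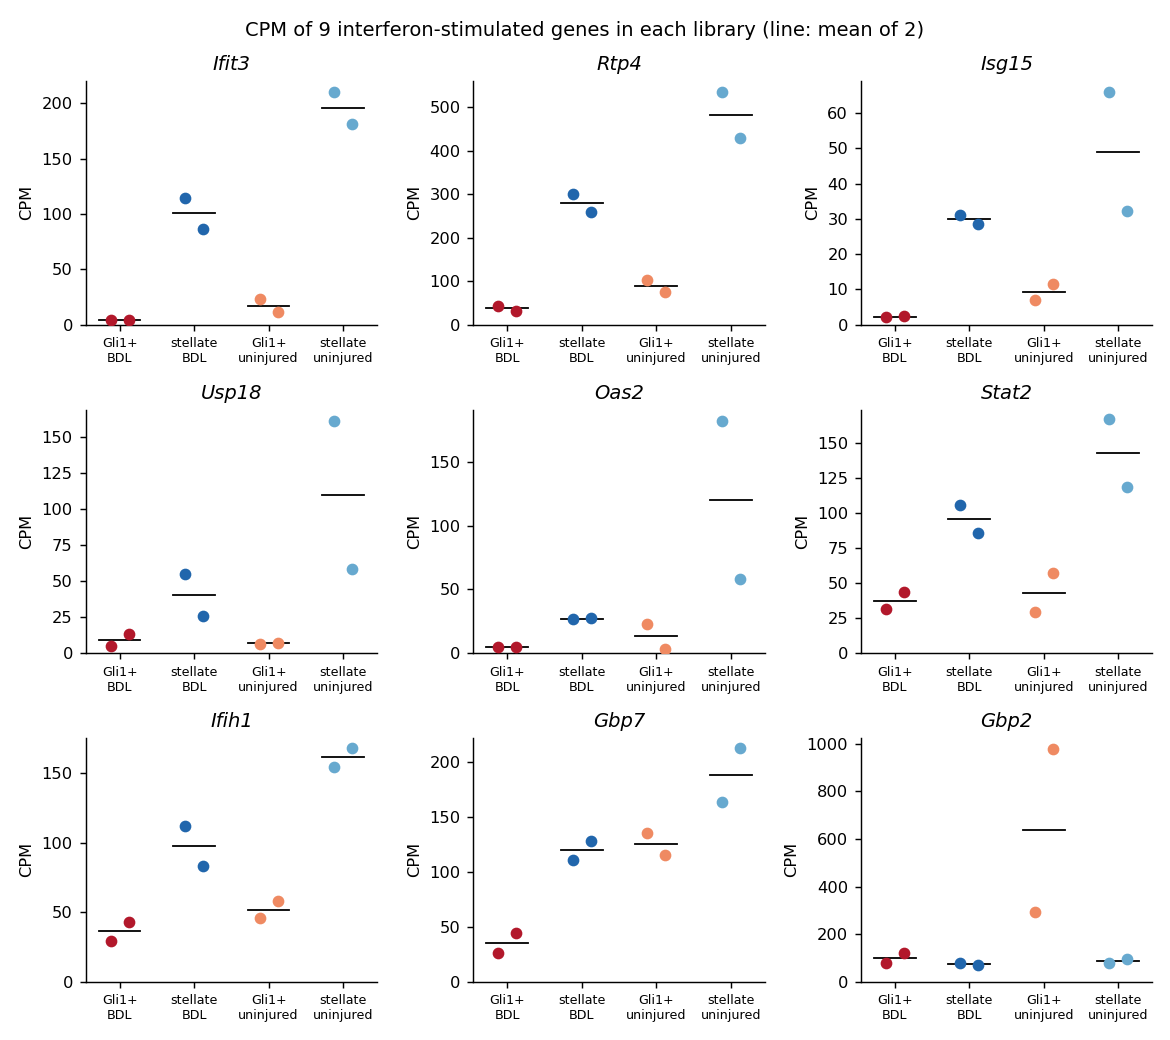
CPM of 9 interferon-stimulated genes in each library, with a line at the mean of the 2 libraries of a group and linear axes that start at 0. Ifit3, Rtp4, Isg15, Usp18, Oas2, Stat2 and Ifih1 are low in Gli1+ and high in stellate cells, Gbp7 is lowest in Gli1+ cells after BDL, and Gbp2 is highest in uninjured Gli1+ cells.

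Isg15 is a ubiquitin-like protein attached to other proteins, Usp18 removes it and blocks the type I receptor, and Herc6 is the mouse ligase for it. Isg15 measured 2.18 and 2.39 CPM in Gli1+ cells after BDL, 31.2 and 28.5 CPM in stellate cells after BDL, 7.01 and 11.5 CPM in uninjured Gli1+ cells, and 65.9 and 32.3 CPM in uninjured stellate cells. The BDL libraries of each population were close to each other, and the 4 Gli1+ libraries lay below the 4 stellate libraries. The difference was -3.23 ± 0.64 after BDL (limma BH-adjusted p = 0.0201) and -2.24 ± 0.64 in uninjured liver (limma BH-adjusted p = 0.0596). The BDL call was lost without any of the 4 BDL libraries, with adjusted p up to 0.177, and in limma-voom, while the averaged one, -2.74 with a limma BH-adjusted p of 0.00406, was kept.

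Usp18 measured 5.24 and 13.5 CPM in Gli1+ cells after BDL, 55.3 and 26.1 CPM in stellate cells after BDL, 6.57 and 7.30 CPM in uninjured Gli1+ cells, and 161 and 58.2 CPM in uninjured stellate cells. Gli1+ libraries were low in both conditions, and the first uninjured stellate library, with the highest macrophage and other immune marker sums, was the highest. The difference was -3.63 ± 0.70 in uninjured liver (limma BH-adjusted p = 0.0136) and -2.04 ± 0.70 after BDL (limma BH-adjusted p = 0.142). Without the first uninjured stellate library, or without either uninjured Gli1+ library, the uninjured call was lost, with adjusted p up to 0.0748, and it was lost in limma-voom. Herc6 ranged from 6.69 to 21.5 CPM in Gli1+ libraries and from 22.3 to 50.9 CPM in stellate libraries, without overlap, and limma on CPM gave an averaged adjusted p of 0.0972.

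Parp9 and Parp14, members of the ADP-ribosyltransferase family induced by interferon, lie near each other on chromosome 16. Parp14 measured 25.6 and 46.4 CPM in Gli1+ cells after BDL, 70.6 and 67.96 CPM in stellate cells after BDL, 39.6 and 68.6 CPM in uninjured Gli1+ cells, and 100.2 and 71.1 CPM in uninjured stellate cells. The populations were close in uninjured liver, with the highest Gli1+ library just under the lowest stellate one. The averaged difference was -0.83 ± 0.32 (limma BH-adjusted p = 0.113). Parp9 ranged from 22.7 to 64.8 CPM in Gli1+ libraries and from 39.5 to 96.9 CPM in stellate libraries, which overlap.

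Rtp4, a chaperone for receptor transport that is strongly induced by type I interferon, measured 42.5 and 32.4 CPM in Gli1+ cells after BDL, 299 and 259 CPM in stellate cells after BDL, 104 and 76.2 CPM in uninjured Gli1+ cells, and 535 and 428 CPM in uninjured stellate cells. The order of the 4 groups was the same as for Ifit3, with no overlap between any 2 of them. The difference of Gli1+ over stellate cells was -2.87 ± 0.32 after BDL (limma BH-adjusted p = 0.00203) and -2.41 ± 0.32 in uninjured liver (limma BH-adjusted p = 0.00259). Both calls held whichever library was left out. Exons of Rtp4 overlap those of Gm45338 on the same strand, which averaged 23.1 CPM, so the count is uncertain to that extent.

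Ifi44 measured 4.03 and 9.82 CPM in Gli1+ cells after BDL, 47.5 and 33.1 CPM in stellate cells after BDL, 19.98 and 21.4 CPM in uninjured Gli1+ cells, and 28.8 and 32.2 CPM in uninjured stellate cells. Gli1+ cells after BDL were below every other library, and the BDL stellate libraries were above all uninjured libraries. The difference after BDL was -2.46 ± 0.57 (limma BH-adjusted p = 0.0367), lost when any 1 library except the first uninjured Gli1+ library or either uninjured stellate library was left out, with adjusted p up to 0.286, and lost in edgeR and limma-voom. In uninjured liver it was -0.54 ± 0.57 (limma BH-adjusted p = 0.619).

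Xaf1, a pro-apoptotic antagonist of XIAP, measured 20.6 and 23.3 CPM in Gli1+ cells after BDL, 86.3 and 83.5 CPM in stellate cells after BDL, 57.2 and 84.96 CPM in uninjured Gli1+ cells, and 128 and 75.2 CPM in uninjured stellate cells. Gli1+ cells after BDL were low, and the other groups overlapped. The difference after BDL was -1.90 ± 0.40 (limma BH-adjusted p = 0.0252), lost without any of the 4 BDL libraries, with adjusted p up to 0.185, and in limma-voom.

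Ifi35 measured 36.4 and 39.8 CPM in Gli1+ cells after BDL, 99.2 and 66.3 CPM in stellate cells after BDL, 44.4 and 77.3 CPM in uninjured Gli1+ cells, and 150.4 and 105 CPM in uninjured stellate cells. Gli1+ libraries were low within each condition, although the second uninjured Gli1+ library was above the second BDL stellate library. The averaged difference was -1.08 ± 0.29 (limma BH-adjusted p = 0.0369), lost when any 1 library except the second uninjured Gli1+ library or the second uninjured stellate library was left out, with adjusted p up to 0.153. Trim30a, which restrains inflammatory signalling in mouse, ranged from 10.8 to 38.4 CPM in Gli1+ libraries and from 46.9 to 141 CPM in stellate libraries, without overlap, and limma on CPM gave an averaged adjusted p of 0.0501. It has a close copy, Trim30d.

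Levels after BDL were set against uninjured liver next. In simulated population contrasts the limma fit recovered few 4-fold changes, so a lack of calls does not show that levels stayed the same. In Gli1+ cells 0 of 35 genes passed the limma threshold in either direction, as did 0% of all genes. At an unadjusted p under 0.05 limma gave 13 lower and 0 higher, where 3.92% of all genes were lower. edgeR called 0 of the 35 lower and 0 of all genes. DESeq2 on the recovered reads called 7 lower, against 0.923% of all genes with an adjusted p, namely Ddx60, Gbp2, Gbp7, Ifit3, Rsad2, Rtp4 and Xaf1. The log2 fold change was below 0 for 32 of 35 genes, with a median of -0.90, against 0.12 over all genes, of which 43.7% were below 0. Both BDL libraries were below both uninjured libraries for 22 of 35 genes, against 16.2% of all genes, and above them for 1, Mx2, against 25.1%. The smallest adjusted p belonged to Gbp7, with a change of -1.84 ± 0.36 (limma BH-adjusted p = 0.0846), and to Gbp2, with -2.43 ± 0.53 (limma BH-adjusted p = 0.0975). The cholangiocyte and hepatocyte marker sums were higher after BDL without overlap, the portal fibroblast sum was lower without overlap, and the endothelial and mesothelial sums overlapped. The cholangiocyte marker sum was 16803 and 8143 CPM in Gli1+ cells after BDL, against 4543 and 3377 CPM in uninjured Gli1+ cells, and the hepatocyte marker sum 4154 and 23239.5 CPM, against 1394 and 261 CPM. The endothelial sum was 1159.5 and 2180.0 CPM, against 1568 and 593 CPM, the portal fibroblast sum 4360.0 and 3667 CPM, against 11529 and 7863 CPM, and the mesothelial sum 6306 and 3995 CPM, against 4354 and 11001 CPM. Limma called 0 genes of these 5 lists, but it called 0% of all genes here, so that count says nothing about the marker sums. Their part in the lower values was not tested.

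In stellate cells 0 of 35 genes passed the limma threshold, where 0.225% of all genes were called higher and 0% lower. At an unadjusted p under 0.05 limma gave 3 lower, Irf7, Cmpk2 and Rtp4, and 0 higher, where 2.32% of all genes were lower. DESeq2 called 1 lower, Irf7, against 1.09% of all genes with an adjusted p, and edgeR called 0 of the 35 and 0 of all genes lower. The log2 fold change was below 0 for 31 of 35 genes, with a median of -0.62, against 0.19 over all genes, of which 36% were below 0. Both BDL libraries were below both uninjured libraries for 20 of 35 genes, against 12.2% of all genes, and above them for 2, Ifi44 and Ifitm3, against 27.4%. The uninjured group held the library with the highest macrophage marker sum, 12937 CPM, which was the highest of the 8 for 17 of the 35 genes. The other uninjured stellate library had the lowest sum, 69.5 CPM, and was the highest for 10. Among all genes these shares were 14.0% and 11.4%. The endothelial marker sum was 4362 and 3134 CPM in stellate cells after BDL, against 1090.5 and 389 CPM in uninjured ones, and the hepatocyte sum 2561 and 2920.3 CPM, against 277 and 247 CPM. The sum of 14 stellate cell markers was 29943 and 25792 CPM after BDL, against 46919 and 71550.5 CPM. The mesothelial sum was 170 and 157 CPM after BDL, against 4.46 and 10.4 CPM, and the cholangiocyte sum 184 and 762 CPM, against 7.40 and 4.01 CPM. The portal fibroblast sum overlapped, at 644 and 747 CPM, against 589 and 724 CPM. Limma called 1 endothelial, 1 hepatocyte, 3 mesothelial, 1 cholangiocyte and 1 portal fibroblast marker higher after BDL. It called 0 of the stellate cell markers in either direction, and 0% of all genes lower. Their part in the lower values was not tested.

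Averaged over both populations, 0 of 35 genes passed the limma threshold, where 0.164% of all genes were called lower and 0.784% higher. At an unadjusted p under 0.05 limma gave 14 lower and 0 higher, where 3.89% of all genes were lower. DESeq2 called 12 lower, against 1.88% of all genes with an adjusted p, and edgeR 0. The log2 fold change was below 0 for 34 of 35 genes, with a median of -0.71, against 0.19 over all genes, of which 38.3% were below 0. In both populations at once, 13 of 35 genes had BDL libraries below uninjured libraries, against 3.35% of all genes, and 0 had them above, against 9.39%. The 13 were Cmpk2, Ddx60, Gbp2, Gbp3, Gbp7, Ifi35, Ifih1, Ifit3, Irf1, Irf7, Isg15, Oasl2 and Rtp4. Gbp7 came closest, at -1.24 ± 0.26 (limma BH-adjusted p = 0.066), followed by Rtp4 at -1.01 ± 0.23 (limma BH-adjusted p = 0.0868) and Ifit3 at -1.38 ± 0.33 (limma BH-adjusted p = 0.0961).

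**Figure D4:**
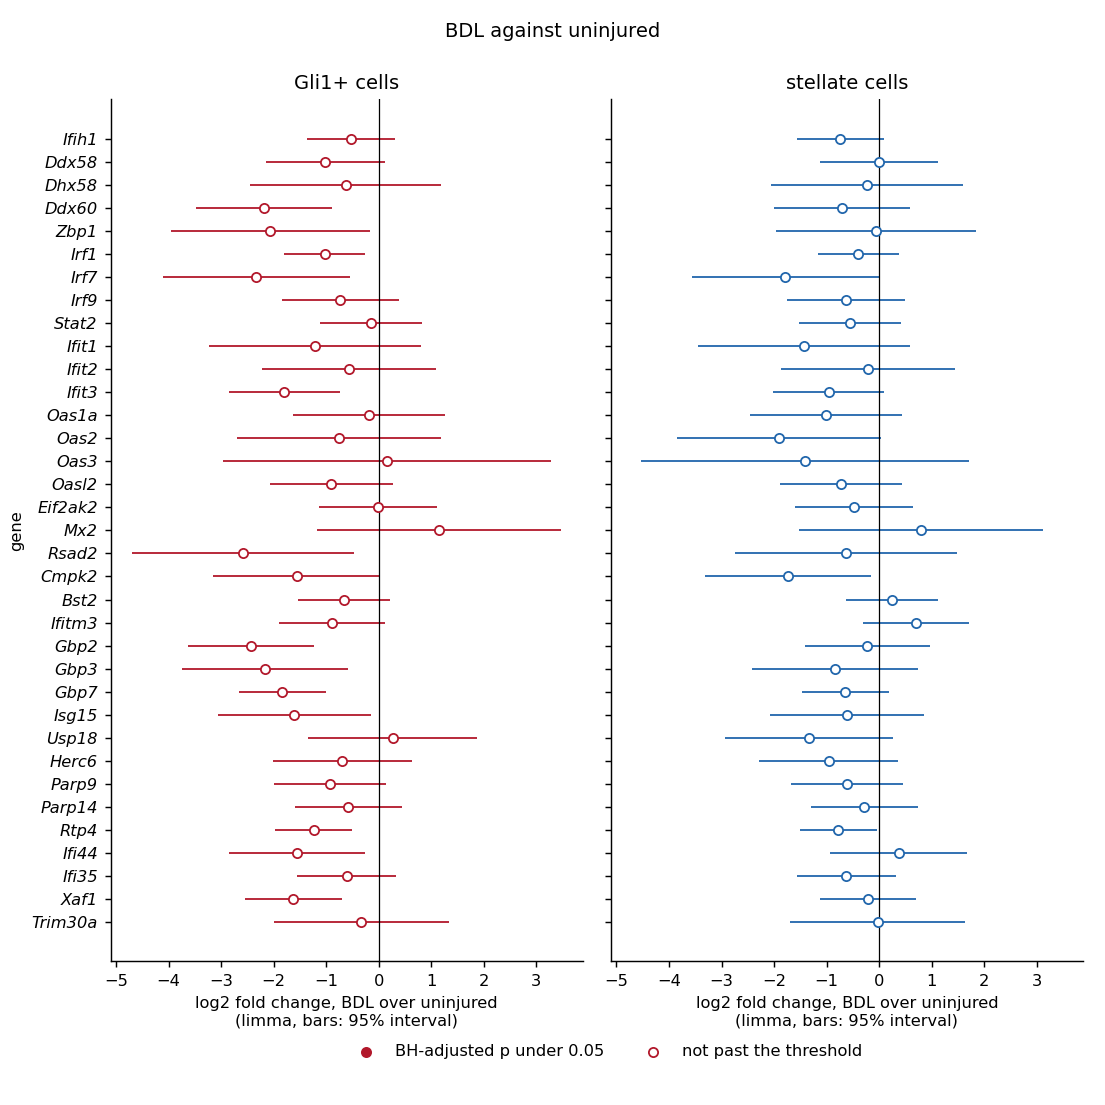
Log2 fold change of BDL over uninjured liver for the 35 genes tested, in Gli1+ cells (left) and stellate cells (right), with 95% intervals from limma. All points are open, since none passed the threshold, and 32 of 35 lie left of 0 in Gli1+ cells and 31 of 35 in stellate cells.

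The 2 BDL responses were compared with an interaction term, which called 0 of 35 genes, where 0.0122% of all genes were called lower and 0% higher. At an unadjusted p under 0.05 limma gave 5 genes with a more negative response in Gli1+ cells, Gbp2, Ifi44, Ifitm3, Xaf1 and Gbp7, where 4.71% of all genes had one. The count with a more positive response was 0, and edgeR and DESeq2 called 0. The median interaction over the 35 genes was -0.35, against -0.12 over all genes.

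Genes of the pathway around these targets were read from lists of interferon ligands, receptors with JAK and STAT proteins, upstream sensing, and other interferon-stimulated genes. Of 21 ligand genes in the list, 4 had a row in the files (Ifnb1, Ifna11, Ifnk and Ifng) and 0 reached the level needed for the test. Their sum was 7.01 CPM in the first uninjured Gli1+ library, all of it Ifng, and at most 0.403 CPM in the other 7. Of 14 receptor and JAK-STAT genes, 1 was higher and 2 were lower in Gli1+ cells than in stellate cells in uninjured liver, where 8.06% of all genes were higher and 3.02% lower. After BDL 1 was higher and 1 lower, against 4.44% and 2.36% of all genes, and averaged 1 was higher and 3 were lower, against 12% and 4.91%. The 3 lower on average were Ifnar2, Il10rb and Jak1, a kinase bound to interferon receptors, with -0.96 ± 0.22 (limma BH-adjusted p = 0.0186).

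Ifnar2, the signalling chain of the type I interferon receptor, measured 77.5 and 78.3 CPM in Gli1+ cells after BDL, 344 and 389.9 CPM in stellate cells after BDL, 128 and 198 CPM in uninjured Gli1+ cells, and 363 and 489 CPM in uninjured stellate cells. Gli1+ libraries were below stellate libraries in both conditions, and lowest after BDL. The difference was -2.22 ± 0.32 after BDL (limma BH-adjusted p = 0.00616) and -1.39 ± 0.32 in uninjured liver (limma BH-adjusted p = 0.0276).

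The receptor for interferon lambda has 2 chains, Ifnlr1 and Il10rb. Ifnlr1 measured 8.79 and 15.6 CPM in Gli1+ cells after BDL, 0 and 0.340 CPM in stellate cells after BDL, 11.01 and 6.96 CPM in uninjured Gli1+ cells, and 0 and 0 CPM in uninjured stellate cells. It was present in every Gli1+ library and at 0 in 3 of 4 stellate libraries. It was higher in Gli1+ cells after BDL, by 3.46 ± 0.71 (limma BH-adjusted p = 0.0222), and in uninjured liver (limma BH-adjusted p = 0.0205), where it was at least 101-fold higher against a floor of 3 reads over both stellate libraries. Epithelial cells are known for this receptor, and the cholangiocyte marker sums given above were likewise higher in the Gli1+ libraries. Their part in the difference was not tested. Il10rb measured 75.8 and 86.7 CPM in Gli1+ cells after BDL, 179.6 and 167 CPM in stellate cells after BDL, 76.1 and 91.1 CPM in uninjured Gli1+ cells, and 194 and 199 CPM in uninjured stellate cells, and was lower in Gli1+ cells in uninjured liver, with a log2 difference of -1.23 ± 0.29 (limma BH-adjusted p = 0.0306).

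Of 16 tested genes of upstream sensing, limma called 0 higher and 1 lower in uninjured Gli1+ cells (all genes 8.06% and 3.02%), Irf8 at -2.85 (BH-adjusted p = 0.0326), and 0 in either direction after BDL (all genes 4.44% and 2.36%). Averaged over both conditions (all genes 12% and 4.91%), Ikbke, a kinase that activates IRF3, was higher by 2.53 (limma BH-adjusted p = 0.0236) and Irf8 differed by -2.21 (limma BH-adjusted p = 0.016). Irf8 is a factor of myeloid cells.

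Among 70 other interferon-stimulated genes tested, 2 were higher and 4 lower in uninjured Gli1+ cells, against 8.06% and 3.02% of all genes. After BDL the counts were 0 higher and 9 lower, against 4.44% and 2.36%, and averaged 2 higher and 16 lower, against 12% and 4.91%. Ifitm1, a relative of Ifitm3, measured 12.1 and 41.7 CPM in Gli1+ cells after BDL, 1017 and 1468 CPM in stellate cells after BDL, 102 and 67.4 CPM in uninjured Gli1+ cells, and 919.7 and 823 CPM in uninjured stellate cells. Stellate libraries were far above Gli1+ libraries. The difference was -5.69 ± 0.53 after BDL (limma BH-adjusted p = 0.000972) and -3.38 ± 0.53 in uninjured liver (limma BH-adjusted p = 0.00514). The others named by size after BDL were Ifit3b at -3.75, Iigp1 at -3.03 and Slfn8 at -2.88.

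Lgals3bp, a secreted glycoprotein, measured 198 and 159 CPM in Gli1+ cells after BDL, 1473 and 939 CPM in stellate cells after BDL, 278 and 281 CPM in uninjured Gli1+ cells, and 1325 and 1210.1 CPM in uninjured stellate cells, and was lower in Gli1+ cells, with a log2 difference of -2.72 ± 0.32 after BDL (limma BH-adjusted p = 0.00235) and -2.17 ± 0.32 in uninjured liver (limma BH-adjusted p = 0.00381). The 2 higher in uninjured Gli1+ cells were Ifi205 at 4.96 (limma BH-adjusted p = 0.0311) and Tgtp1 (limma BH-adjusted p = 0.0139), an interferon-inducible GTPase with 2 reads over both uninjured stellate libraries and a ratio of 255 (95% interval 70.3 to 2117, counting error only). The related Tgtp2 had the opposite sign after BDL, at -2.12 against 1.89 for Tgtp1, and neither was called there. How reads that match both genes were counted is not given, so the ratio of Tgtp1 is uncertain. In the comparison of BDL with uninjured liver averaged over both populations, limma called 2 of the 70 lower and 0 higher, against 0.164% and 0.784% of all genes. They were the chemokine gene Cxcl10, at -2.30 ± 0.42 (limma BH-adjusted p = 0.0486), and Gbp8, at -2.36 ± 0.38 (limma BH-adjusted p = 0.0381). In each population alone 0 of the 70 were called.

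Cxcl10 measured 10.2 and 8.80 CPM in Gli1+ cells after BDL, 19.4 and 20.9 CPM in stellate cells after BDL, 37.6 and 120.0 CPM in uninjured Gli1+ cells, and 97.5 and 61.00 CPM in uninjured stellate cells. Gbp8 measured 11.1 and 6.23 CPM in Gli1+ cells after BDL, 13.8 and 10.8 CPM in stellate cells after BDL, 36.9 and 68.5 CPM in uninjured Gli1+ cells, and 70.8 and 54.8 CPM in uninjured stellate cells. For both genes the BDL libraries of each population were below its uninjured libraries.

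**Figure D5:**
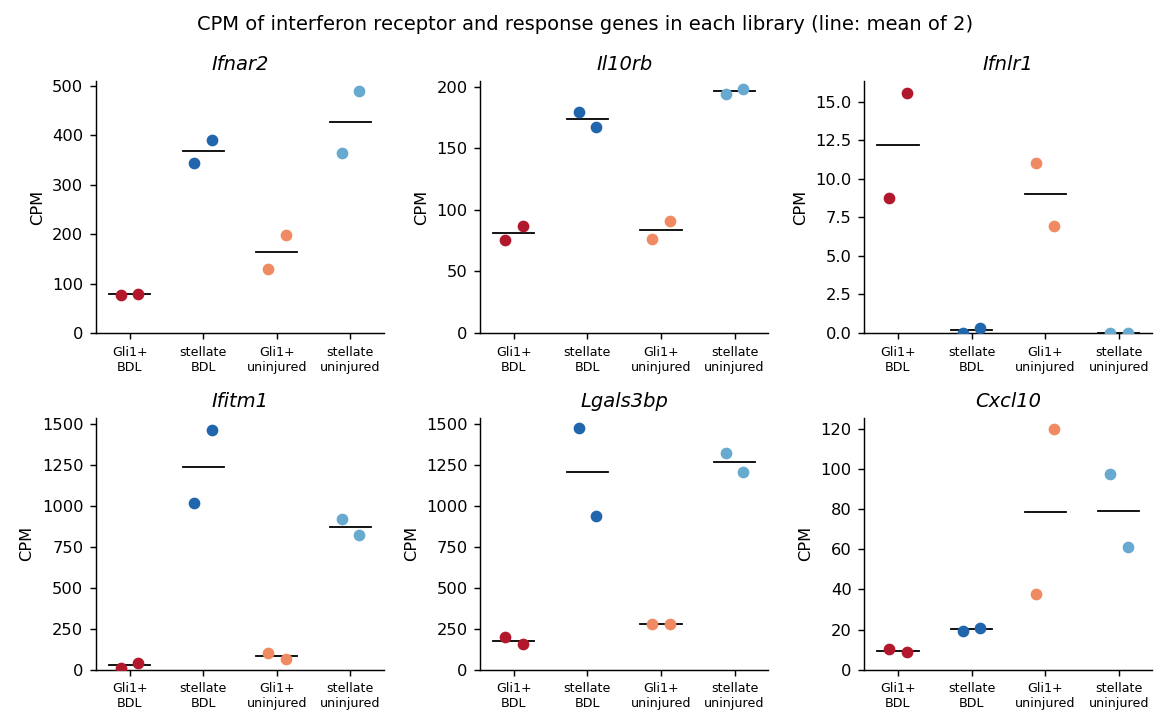
CPM of 3 receptor genes and of Ifitm1, Lgals3bp and Cxcl10 in each library, with a line at the mean of the 2 libraries of a group and linear axes that start at 0. Ifnlr1 is seen in Gli1+ cells and is near 0 in stellate cells, and Ifnar2, Il10rb, Ifitm1 and Lgals3bp are lower in Gli1+ than in stellate cells in both conditions. Cxcl10 is lower after BDL than in uninjured liver in both populations.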

How the data were processed

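RNA of 8 libraries was sequenced, 2 in each of 4 groups set by the labels. The deposited values were CPM, which the file headers call normalized counts, with 1 column per library that sums to 1000000. Per the submitters' processing notes, which give no roles, FastQC, STAR 2.5.2b, featureCounts, DESeq2 and the build mm10 were used. Which annotation release and strand setting were used, and how multi-mapped reads were counted, is not given in the sources used here. Each value was a whole multiple of 1 read (100.0% whole within 0.1 read), so reads were recovered, and 3 reads in a library equalled 0.156 to 0.266 CPM. PCR copies are not independent molecules, so floors and counting intervals cover counting error only.

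Of 30395 identifiers, 30214 had an entry in GENCODE vM21 (GRCm38, mm10), from which symbols and 1-based coordinates were taken. The design was written for CPM or counts, and as they were CPM, log2(CPM + 1) was fitted with limma-trend (R 4.3.3, limma 3.58.1) with 1 mean for each of the 4 groups (4 residual degrees of freedom), on the 16446 genes that reached 1 CPM in 2 or more libraries. This scale understates fold changes of genes with few reads. The 7 contrasts were the population difference and the BDL response, each per group and averaged, and their interaction. The threshold was a Benjamini-Hochberg adjusted p of 0.05 over all tested genes. The fit was tested on simulated population contrasts with 200 changed genes. The real contrasts called more, 1325 genes higher and 497 lower in uninjured liver and 730 and 388 after BDL. With fewer changed genes the correction is stricter, so recovery in the real contrasts can differ. BDL responses were not simulated. Of 4-fold changes it recovered 2.5% in the uninjured and 0% in the BDL population contrast. Of 16-fold changes it recovered 62.5% and 63%. A gene that was not called is therefore not shown to be unchanged.

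Library values are given for each member called in any contrast and for the most abundant member of each role. Other lists gave up to 4 called genes per contrast and direction, by size of change. Irf7, given by library, was added after its values were seen. 1 gene of the receptor list is not reported here. The members and lists were chosen with earlier results of these data known. Alternatives were other pseudocounts, filters, scalings, edgeR 4.0.16, DESeq2 1.42.0 and limma-voom on recovered reads, the contrast's own libraries, a replicate block and each library left out.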

Additional observations from a re-analysis of the deposited data

Results flagged for a closer look

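Ifi44 was picked because its BDL and uninjured libraries did not overlap in either population, with opposite directions in the 2. Its log2 change of BDL over uninjured liver was -1.56 in Gli1+ cells, where both BDL libraries lay below both uninjured libraries, and 0.37 in stellate cells, where both lay above. In stellate cells the margin was small, with the lower BDL library at 33.1 CPM and the higher uninjured library at 32.2 CPM. The test of the difference between the responses passed an unadjusted 0.05 in limma, but its BH-adjusted p over all genes was 0.638, so it failed the correction. Since the gene was picked from these same values, the unadjusted result is no separate support for a difference.

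Ifitm3 was picked in the same way, with -0.90 in Gli1+ cells and 0.70 in stellate cells. Its test of the difference also passed an unadjusted 0.05 in limma, with a BH-adjusted p of 0.604, and is no separate support either.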

How the results depend on the processing

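No member reversed direction in a comparison that called it. In uninjured liver the 1 higher call became 0 with no filter on low values and 0 with only the libraries of the contrast, and the 7 lower calls became 2 and 2, and 3 to 7 as single libraries were left out. After BDL the 7 lower calls became 3 with no filter, 3 with limma-voom, 15 with DESeq2 and 11 with only the libraries of the contrast, and 2 to 10 as single libraries were left out. In the averaged population comparison the 1 higher call became 0 with no filter, TMM scaling, median-of-ratios scaling, edgeR or limma-voom, and 0 to 1 with single libraries left out, where the 16 lower calls became 6 to 18. For BDL against uninjured liver the 0 lower calls became 7 in Gli1+ cells, 1 in stellate cells and 12 averaged with DESeq2, and averaged they became 1 with a mean of at least 5 CPM and 0 to 1 with single libraries left out. The cause was not tested. Of 32 called values, 10 passed the threshold whichever library was left out.

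Whether the replicate numbers pair the samples is not given in the labels. Deviations of same-numbered Gli1+ and stellate libraries correlated at 0.0786 in uninjured liver and at 0.112 after BDL. Between groups of different condition they correlated at -0.112 to 0.000743. These values do not settle whether samples were paired. With a replicate block the lower calls were 6 in uninjured liver, 6 after BDL and 13 averaged. Stat2 (uninjured), Ifi44 (BDL and averaged), and Ifi35 and Ddx60 (averaged) were then not called. The fit on only the libraries of the contrast does not apply to averaged and interaction contrasts. Mx1, at or below 0.967 CPM in 7 libraries, was not tested, since it did not reach 1 CPM in 2 libraries.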
